A study of Arabidopsis thaliana with 12 samples.

Results

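The growth-regulating factors (GRF1 to GRF9) and their partner GRF-INTERACTING FACTOR 1 (GIF1, also called ANGUSTIFOLIA3) were followed in roots of Arabidopsis thaliana. The 10 genes were taken by their locus identifiers from a table of 33602 loci counted in 12 RNA sequencing libraries. The study compared wild type (Col-0) with myb36-1, a mutant of the endodermal transcription factor MYB36. All seedlings were harvested 6 days after exposure to light. The title of the study places MYB36 at the passage from cell division to differentiation. Each genotype was sampled both as intact whole roots and as sorted endodermal cells, which makes 4 groups of 3 biological replicates. Sorted cells came from protoplasts, which are cells freed of their walls, separated by fluorescence, and their RNA was extracted with a kit made for small samples. The sources used here name neither the reporter used for sorting nor the lesion of the single mutant allele.

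GRF proteins are plant transcription factors that bind DNA through a WRC domain and meet their partners through a QLQ domain. GIF proteins are coactivators that bind no DNA themselves, join GRF proteins and bring in SWI/SNF chromatin remodelling complexes. Together they keep cells of leaves and roots dividing, while the microRNA miR396 cleaves most GRF transcripts and spares GIF1. In the root tip, miR396 is known to keep GRF genes off in the stem cells and so to separate these from the rapidly dividing cells of the meristem.

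Pairing with miR396 separates the members into those with a close match in coding sequence and those without one, so the sequences are given first. They come from the RefSeq sequence and annotation of the TAIR10.1 assembly. Both mature microRNAs have the same seed, bases 2 to 8, in capitals here, and differ only at the last base.
ath-miR396a-5p: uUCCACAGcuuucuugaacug
ath-miR396b-5p: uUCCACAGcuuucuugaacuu
A window in coding sequence was called a site when mismatches and unpaired bases together numbered 3 or fewer. Such a site was found in 7 members, in 4 distinct sequences of 22 bases, each with 1 unpaired base opposite the junction of microRNA positions 7 and 8. Capitals mark bases that pair with the microRNA.
GRF1 and GRF2: ucGUUCAAGAAAGCcUGUGGAA
GRF3 and GRF4: CcGUUCAAGAAAGCcUGUGGAA
GRF7 and GRF8: ucGUUCAAGAAAGCaUGUGGAA
GRF9: AcGUUCAAGAAAGCuUGUGGAA
The GRF1 site lies at chr2:9729944-9729965 on the plus strand and the GRF3 site at chr2:15271745-15271766 on the minus strand. The GRF4 site lies at chr3:19617293-19617314 on the minus strand. GRF5, GRF6 and GIF1 had no site. The nearest match in GRF6, with 6 mismatches, is shown for contrast.
GRF6: CAGagCcAGgAAGaUGUaGAA
A match is a property of the sequence and not a measurement of cleavage.

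The libraries held 17721913 to 24274637 counts in wild-type sorted cells, 7280556 to 13427477 in mutant sorted cells and 19812171 to 22722091 in whole roots. A locus with 0 counts allows up to 3 counts in that library. That is 0.124 to 0.412 CPM (counts scaled to a common library size, here by the library total), a limit of counting error alone. Replicates of mutant sorted cells were the least alike, with rank correlations of 0.918 to 0.928, against 0.974 to 0.983 in the other groups. The summed level of 6 endodermis markers was 1735.3 to 2832 CPM in wild-type sorted cells against 542 to 702 in wild-type whole roots. It was 999.996 to 1395 CPM in mutant sorted cells against 98.1 to 99.5 in mutant whole roots, and 5 of 6 markers passed the test as higher in sorted cells in each genotype. MYB36 itself was counted in every library, at 133 to 266 CPM in wild-type and 97.1 to 191 in mutant sorted cells, and at 30.4 to 34.8 against 16.7 to 19.5 CPM in whole roots. The p-values below measure the spread between these samples.

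Of the 10 members, 7 had enough counts to be tested in every comparison: GIF1 (AT5G28640), GRF1 (AT2G22840), GRF2 (AT4G37740), GRF3 (AT2G36400), GRF4 (AT3G52910), GRF6 (AT2G06200) and GRF9 (AT2G45480). The other 3 passed no filter. GRF5 (AT3G13960), which promotes cell division in leaves, had 0 counts in 10 libraries and 1 count in wild-type whole root replicate 3 and in mutant whole root replicate 3. GRF7 (AT5G53660), a repressor of the drought response gene DREB2A, had 0 counts in 9 libraries and 1, 3 and 1 counts in mutant whole roots. GRF8 (AT4G24150) had 1, 0 and 0 counts in wild-type sorted cells and 0 in each mutant sorted library. Its whole-root libraries had 3, 2 and 1 counts in wild type, then 2, 0 and 1 in the mutant. No library held more than 3 counts of any of these genes, too few for a comparison between groups.

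Levels of different genes were compared as CPM per kilobase of exon. In wild-type sorted endodermis GRF3 was the highest member at 29.6 ± 3.24 CPM per kilobase (SD, n = 3 here and below). GRF4 followed at 14.1 ± 1.65 and GRF1 at 12.2 ± 2.44. These neighbours overlapped between libraries, though GRF4 stood above GRF1 within each library. GIF1 stood at 8.13 ± 0.495 and GRF2 at 7.06 ± 0.176, a pair that did not overlap. GRF6 at 2.59 ± 0.974 and GRF9 at 2.49 ± 0.143 were the lowest CPM per kilobase of the members tested and overlapped. In wild-type whole roots the order was GRF3 at 12.7 ± 2.47 CPM per kilobase, GRF1 at 9.50 ± 0.981, GRF4 at 5.62 ± 0.698 and GIF1 at 5.04 ± 1.09. GRF3 and GRF1 did not overlap there, with lowest GRF3 at 11.0 and highest GRF1 at 10.6, while GRF4 and GIF1 did. Within each of these libraries GRF4 stood above GIF1. GRF2 at 3.52 ± 0.399, GRF9 at 2.95 ± 0.301 and GRF6 at 1.04 ± 0.165 were the lowest of the members tested. In mutant sorted cells the order of means differed: GIF1 came first at 32.4 ± 7.13 CPM per kilobase, ahead of GRF4 at 22.5 ± 12.1 and GRF3 at 21.5 ± 6.85, though these 3 overlapped between libraries. Within each mutant sorted library GIF1 stood above both GRF4 and GRF3. GRF1 at 8.82 ± 1.88, GRF2 at 7.36 ± 4.94, GRF6 at 2.61 ± 0.978 and GRF9 at 2.07 ± 2.29 CPM per kilobase followed. Mutant whole roots kept the wild-type order at the top, with GRF3 at 15.8 ± 1.06, GRF1 at 11.9 ± 1.13, GRF4 at 7.55 ± 0.421 and GIF1 at 7.27 ± 0.778 CPM per kilobase.

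**Figure D1:**
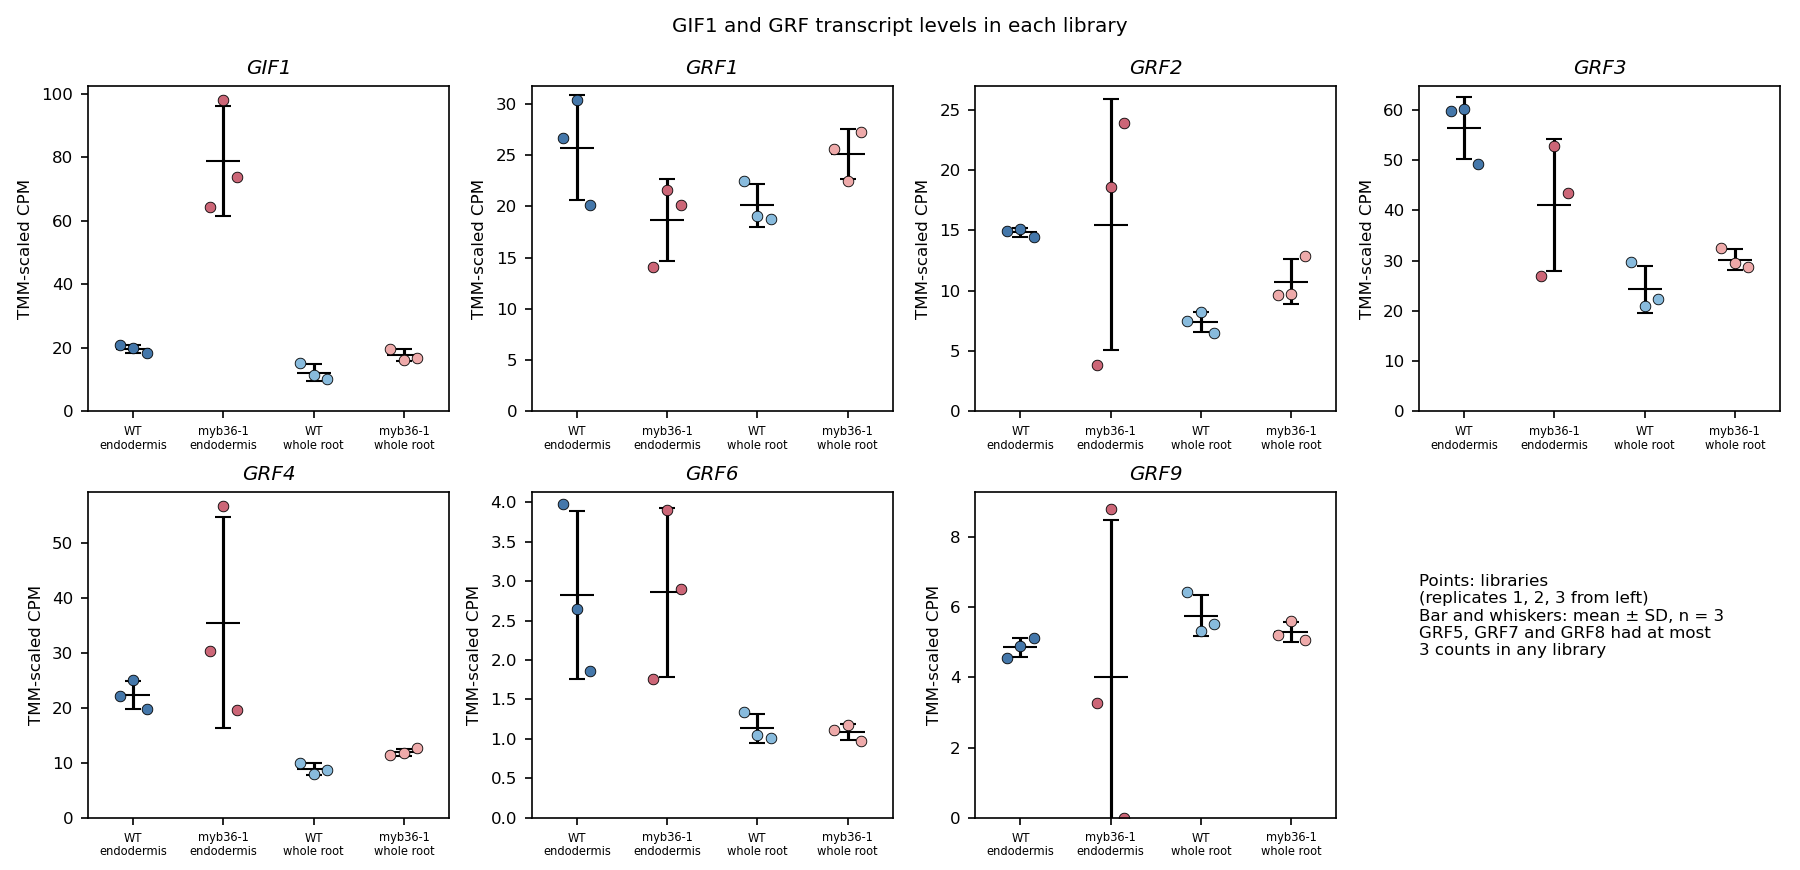
Level of each member tested, in TMM-scaled CPM, in the 3 libraries of each group. Points are libraries, and bars and whiskers are mean ± SD. GIF1 in mutant sorted endodermis lies between 64.4 and 98.0 CPM, above all other libraries, while mutant sorted libraries of GRF2, GRF4 and GRF9 spread widely.

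GIF1 was the member that rose with the mutation in the endodermis, about 4.06-fold. The gene lies at chr5:10647467-10650066 on the minus strand of TAIR10.1, with up to 4 exons. It measured 20.9, 19.9 and 18.5 CPM in the wild-type sorted libraries and 64.4, 98.0 and 73.7 CPM in the mutant ones. The groups did not overlap, and every mutant library stood far above every wild-type library. The log2 fold change was 2.02 (SE 0.23, edgeR quasi-likelihood adjusted p = 0.00100). It rests on 1139 counts in wild type against 2017 in the smaller mutant libraries. The call held in each of the 14 alternatives, with log2 fold changes of 1.83 to 2.13 and adjusted p up to 0.0110.

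Among all 18318 genes tested in sorted endodermis, 28.5% were called, 15.6% higher and 12.9% lower, and the median log2 fold change was -0.05. Against that share, 1 call among the 7 members tested was no more frequent than calls among all genes, and their median was 0.03. Groups without overlap and higher in the mutant made up 22% of all genes, and 27.3% were without overlap and lower; GIF1 was the one member so placed, and no member was lower without overlap. Long transcripts stood higher in mutant sorted cells than short ones. When genes were split into 5 equal classes by exon length, the median log2 fold change ran -0.51, -0.21, -0.08, 0.12 and 0.36 from the shortest class to the longest. GIF1, with 2429 bases of exon, belongs to class 4 of 5. The part of transcript length in the GIF1 change was not tested. No such run appeared between genotypes in whole roots, where the median was 0.01 in each of the 5 classes.

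No GRF gene was called in sorted endodermis. In simulated data with 100 changes of 2-fold and 100 of 4-fold, this test recovered 2% of the 2-fold changes. Far more genes were called in the data, 28.5%, so the adjusted threshold was less strict here than in the simulation. The 2% is therefore not the power of this test, but a gene not called may still have changed 2-fold. GRF1, a growth regulator of leaves that also acts in the root, measured 26.7, 30.4 and 20.2 CPM in wild type against 14.1, 21.6 and 20.2 in the mutant, and the groups overlapped (log2 -0.44, SE 0.28, edgeR adjusted p = 0.270). GRF3, which acts in the root meristem under miR396, measured 59.8, 60.0 and 49.2 CPM in wild type against 27.0, 52.8 and 43.4 in the mutant (log2 -0.43, SE 0.27, edgeR adjusted p = 0.273). Mutant replicate 1 was the low library for both genes. GRF4 measured 22.2, 25.1 and 19.9 CPM in wild type against 30.3, 56.7 and 19.6 in the mutant (log2 0.70, SE 0.37, edgeR adjusted p = 0.201). Its mutant libraries spread over the whole wild-type range and beyond.

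The 3 other GRF genes spread more widely between mutant replicates than their group means differed. GRF2, the close paralog of GRF1, measured 14.97, 15.2 and 14.4 CPM in wild-type sorted cells against 3.88, 18.6 and 23.9 in the mutant (log2 0.08, SE 0.56, edgeR adjusted p = 0.931). GRF9, known as a restraint on leaf growth, measured 4.56, 4.89 and 5.12 CPM in wild type against 3.27, 8.80 and 0 in the mutant (log2 -0.24, SE 1.07, edgeR adjusted p = 0.891). The 0 of GRF9 in mutant replicate 3 stood beside 37 and 70 counts in the other mutant libraries. In replicate 3, 0 counts allow up to 0.412 CPM by library total. GRF6 measured 3.97, 2.65 and 1.87 CPM in wild type against 1.77, 3.90 and 2.90 in the mutant, and the groups overlapped (log2 0.03, SE 0.62, edgeR adjusted p = 0.972). GRF9 overlaps the antisense gene AUR3 by 126 bases, GRF1 overlaps AT2G22850 by 23 bases and GRF3 overlaps AT2G36390 by 5 bases, and the sources used here do not say whether counting used strand.

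**Figure D2:**
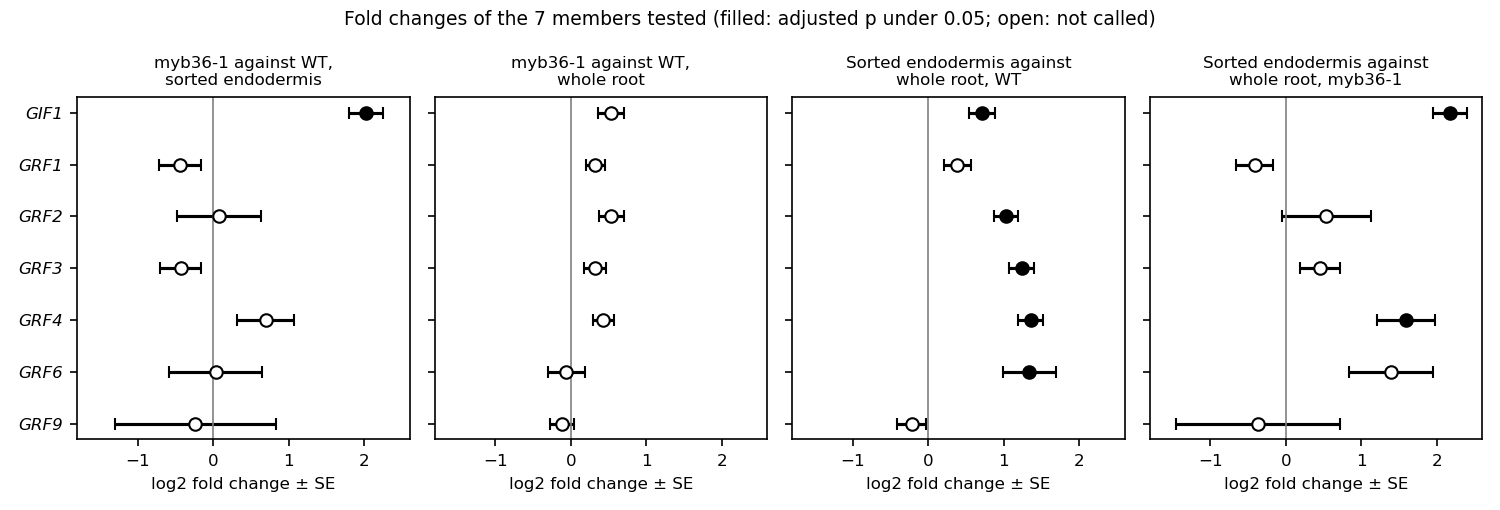
log2 fold change ± SE of the 7 members tested, in 4 panels: mutant against wild type in sorted endodermis and in whole root, and sorted endodermis against whole root in wild type and in the mutant. Filled points have an edgeR adjusted p under 0.05. GIF1 is the filled point in the first panel at 2.02, the second panel has none, and 5 members are filled in the wild-type tissue panel and 2 in the mutant one.

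Markers of other cells moved with the genotype in the sorted libraries. Dividing-cell markers were higher for 3 of 11 and lower for 0, and their summed level was 251 to 307 CPM in wild type and 275 to 524 in the mutant. Of 2 markers of the stem cell niche, 1 was higher, with sums of 0.698 to 2.06 and 6.97 to 17.6 CPM. Markers of the root cap fell for 4 of 5, from 104 to 144 CPM down to 2.14 to 17.8, and those of root hair and epidermis for 4 of 5, from 170 to 211 down to 30.04 to 42.5. Genes of the response to wounding and protoplasting were higher for 4 of 5, at 533 to 692 CPM in wild type against 1563 to 4544 in the mutant. Endodermis markers themselves were higher for 1 of 6 and lower for 4. SCR was the higher one, averaging 296 CPM in wild type against 840 in the mutant (log2 1.53, edgeR adjusted p = 0.00351). The lower ones were CASP1, CASP2, ESB1 and PER64, and MYB36, the mutated gene, was not called. As MYB36 is an endodermal transcription factor, endodermis content and an effect of its mutation on these markers cannot be told apart. The 1 of 2 cortex markers tested was higher, with summed levels of 0.322 to 1.12 against 6.53 to 18.3 CPM, and 0 of 4 stele markers tested of 7 were called, at 200 to 251 against 163 to 221 CPM. No marker was at 0 over a whole group. Their part in the GIF1 difference was not tested, and in bulk samples fewer cells of a type and less RNA per cell cannot be told apart.

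In whole roots no member passed the test, but most stood slightly higher in the mutant. Of all 19624 genes tested, 6.1% were called, 3.25% higher and 2.85% lower, and 0 of the 7 members. By edgeR 3755 of all genes had an unadjusted p under 0.05, and GIF1, GRF1, GRF2 and GRF4 were among them. The groups did not overlap, with the mutant higher, for these 4 members of 7, where 12.3% of all genes stood so. The mutant was lower without overlap for 11.9% of all genes and 0 members. The median log2 fold change of the 7 members was 0.33 against 0.01 over all genes. Among markers in whole roots, 5 of 6 of the endodermis and 1 of 7 of the stele were lower, while 3 of 4 wounding genes and 1 of 5 root cap genes were higher; their part in the members' values was not tested.

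GIF1 measured 15.2, 11.4 and 10.1 CPM in wild-type against 19.8, 16.2 and 16.9 in mutant whole roots (log2 0.53, SE 0.17, edgeR adjusted p = 0.110). All 3 mutant libraries stood above all 3 wild-type libraries. GRF2 measured 7.52, 8.20 and 6.53 CPM in wild type against 9.62, 9.69 and 12.9 in the mutant (log2 0.54, SE 0.17, edgeR adjusted p = 0.103). GRF4 measured 10.1, 7.90 and 8.69 CPM in wild type against 11.4, 11.7 and 12.7 in the mutant (log2 0.43, SE 0.14, edgeR adjusted p = 0.115). In each of these the mutant libraries lay above the wild-type ones by less than a doubling. GRF1 measured 22.5, 19.0 and 18.7 CPM in wild type against 25.6, 22.5 and 27.2 in the mutant (log2 0.33, SE 0.13, edgeR adjusted p = 0.190). GRF3 measured 29.7, 20.9 and 22.3 against 32.5, 29.4 and 28.6 CPM and overlapped through wild-type replicate 1 (log2 0.32, SE 0.15, edgeR adjusted p = 0.277). GRF6 (log2 -0.06, SE 0.25) and GRF9 (log2 -0.12, SE 0.16) lay near 0, with edgeR adjusted p of 0.942 and 0.755. Without wild-type whole-root replicate 1, GIF1 (log2 0.70, edgeR adjusted p = 0.0163), GRF3 (0.47, 0.0370) and GRF4 (0.52, 0.0481) were called higher in the mutant.

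The effect of the mutation on GIF1 differed between the samples. The log2 effect in sorted endodermis exceeded that in whole roots by 1.47 (SE 0.29, edgeR interaction term over all 12 libraries, adjusted p = 0.00248). This difference was called in each of the 19 alternatives, with values of 1.27 to 1.58 and adjusted p up to 0.0104. Of all 20302 genes tested for it, 28.4% were called, 13.8% higher and 14.6% lower, against 1 of 7 members. GRF1 (log2 -0.79, SE 0.30, edgeR adjusted p = 0.0660) and GRF3 (log2 -0.77, SE 0.32, edgeR adjusted p = 0.0922) had the opposite sign and were not called. Without mutant sorted replicate 2, both GRF1 (-0.91, adjusted p = 0.0306) and GRF3 (-0.996, adjusted p = 0.0194) were called lower, and GRF1 also without wild-type sorted replicate 3 (-0.95, adjusted p = 0.0386). GRF2, GRF4, GRF6 and GRF9 lay between -0.49 and 0.24, with edgeR adjusted p of 0.607 to 0.956. Of simulated 2-fold changes the interaction test recovered 0%, with 100 changes of 2-fold and 100 of 4-fold simulated. As 28.4% of genes were called in the data, the adjusted threshold was less strict here, so 0% is not the power of this test. Members not called may still differ 2-fold.

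In wild type, most members stood higher in sorted endodermis than in the whole root. Of the 7 tested, 5 were called higher and 0 lower, where 68.7% of all 19747 genes were called, 33.4% higher and 35.4% lower. Cell type, protoplasting, sorting and RNA kit differ together in this comparison and cannot be told apart. Markers of other cells differed too. Root cap markers were higher in sorted cells for 4 of 5 and lower for 1, summing 104 to 144 against 37.1 to 62.3 CPM. Dividing-cell markers were higher for 5 of 11 and lower for 2. Root hair and epidermis markers were higher for 2 of 5 and lower for 2. Stele markers were lower for 5 of 7, and the 1 tested marker of cortex and of stem cell niche was lower. Their part in the members' values was not tested. On the log2 scale GRF4 was higher by 1.36 (SE 0.16, edgeR adjusted p = 6.11e-05), GRF6 by 1.34 (SE 0.35, adjusted p = 0.00652) and GRF3 by 1.24 (SE 0.17, adjusted p = 1.21e-04). GRF2 followed at 1.03 (SE 0.16, edgeR adjusted p = 2.83e-04) and GIF1 at 0.71 (SE 0.18, adjusted p = 0.00518). All 5 had sorted libraries above every whole-root library, as 35% of all genes did. GRF9 was the 1 member with every sorted library below every whole-root library, where 38.6% of all genes stood. GRF1 (log2 0.38, SE 0.18, edgeR adjusted p = 0.0754) and GRF9 (log2 -0.22, SE 0.20, adjusted p = 0.340) were not called. GRF1 was called without wild-type sorted replicate 3 (log2 0.53, edgeR adjusted p = 0.0148). The median of the 7 members was 1.03, and that of all genes -0.01. In this comparison short transcripts stood higher, with a median log2 fold change of 0.33 in the shortest class, which holds GRF6, and -0.30 in the longest.

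In the mutant, 2 members passed the same comparison. Of all 19347 genes 29.6% were called, 12.3% higher and 17.3% lower. On the log2 scale GIF1 was higher in sorted cells by 2.17 (SE 0.22, edgeR adjusted p = 6.96e-04) and GRF4 by 1.59 (SE 0.39, adjusted p = 0.0195). The GRF4 call was lost without mutant whole-root replicate 1, 2 or 3, at adjusted p of 0.0869, 0.0833 and 0.0795. GRF6 lay at 1.40 (SE 0.55, edgeR adjusted p = 0.0999), GRF2 at 0.54 (SE 0.59, adjusted p = 0.536) and GRF3 at 0.46 (SE 0.27, adjusted p = 0.237). GRF1 stood lower in every sorted library than in every whole-root library and was not called, and 31.7% of all genes stood so (log2 -0.41, SE 0.24, edgeR adjusted p = 0.244). GRF9 lay at -0.37 (SE 1.09, adjusted p = 0.827). For 3 members every sorted library stood above every whole-root library, as for 19.3% of all genes. Without mutant sorted replicate 1, the lowest of that group for GRF2 and GRF3, also GRF2 (0.99, adjusted p = 0.0201), GRF3 (0.68, adjusted p = 0.0178) and GRF6 (1.65, adjusted p = 0.0239) were called. This comparison and the previous ones share libraries, so their values are given side by side and not correlated.

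The coactivator was next set against the sum of its DNA-binding partners. GIF1 divided by the sum of the 9 GRF genes, both as CPM per kilobase, was 0.121, 0.111 and 0.129 in wild-type against 0.588, 0.445 and 0.517 in mutant sorted cells. The mutant ratio was 4.30 times the wild-type ratio, and the groups did not overlap (two-sided exact permutation p = 0.1, the smallest that 3 against 3 libraries allow). In whole roots the ratio was 0.154, 0.144 and 0.126 in wild type against 0.182, 0.159 and 0.153 in the mutant, and the groups overlapped (exact permutation p = 0.2). The GRF sum itself was 71.1, 73.8 and 59.1 CPM per kilobase in wild-type against 45.1, 90.7 and 58.7 in mutant sorted cells (exact permutation p = 0.9). The mutant libraries lay on both sides of the wild-type range. In whole roots the sum was 40.7, 32.6 and 33.0 in wild type against 44.7, 42.1 and 45.6 in the mutant, 1.25 times as high without overlap (exact permutation p = 0.1).

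**Figure D3:**
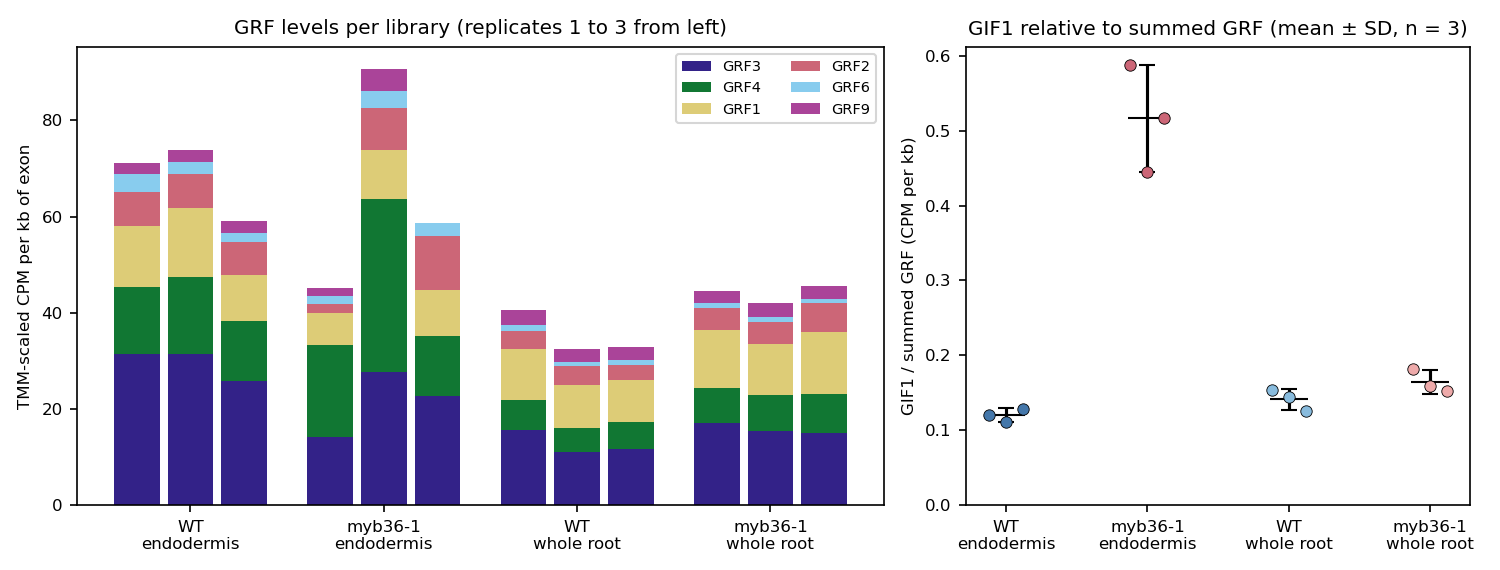
Left, stacked levels of 6 GRF genes in CPM per kilobase of exon in each library. Right, GIF1 divided by the GRF sum, with points for libraries and mean ± SD. The ratio lies between 0.445 and 0.588 in mutant sorted endodermis and between 0.111 and 0.182 in the other 3 groups.

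The make-up of the GRF sum also varied. GRF3 held the largest share in every library but mutant sorted replicates 1 and 2, where GRF4 did. The mean share of GRF3 was 43.5% in wild-type sorted cells against 33.6% in mutant ones, without overlap (exact permutation p = 0.1). GRF4 held 19.7%, 21.5% and 21.2% in wild-type sorted cells against 42.4%, 39.5% and 21.1% in mutant ones, so mutant replicates 1 and 2 stood apart from replicate 3 (exact permutation p = 0.3). GRF9 held 8.36% ± 0.249 in wild-type and 6.17% ± 0.588 in mutant whole roots, without overlap. GRF1 held a mean of 26.9% in whole roots of both genotypes, 17.8% in wild-type and 14.1% in mutant sorted cells. Across the 12 libraries, levels of GRF3 and GRF6 had a Pearson correlation of 0.864, GRF4 and GIF1 of 0.829 and GRF1 and GIF1 of -0.298. These values describe 12 libraries that share 4 groups and a common scale, and carry no test.

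Members with a miR396 site were set beside those without one, with no test of the difference. In sorted endodermis the 5 tested GRF genes with a site, GRF1, GRF2, GRF3, GRF4 and GRF9, had log2 fold changes from -0.44 to 0.70 with mutation, and 0 of them were called. The tested members without a site were GRF6 at 0.03 and GIF1 at 2.02. Of all genes 28.5% were called there, 15.6% higher. Against whole root in wild type, 3 of the 5 with a site and both without one were called higher, where 33.4% of all genes were. The precursor gene MIR396A had 0 to 7 counts per library and MIR396B had 0 in all 12. Neither passed the filter for the count test here, and counts on the precursor genes do not measure mature miR396.

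Of the GIF1 paralogs, GIF2 rose in mutant endodermis and GIF3 was not called. GIF2, which acts redundantly with GIF1, measured 18.5, 18.9 and 17.996 CPM in wild-type against 32.4, 38.2 and 31.1 in mutant sorted cells. The groups did not overlap (log2 0.90, SE 0.22, edgeR adjusted p = 0.0164). In whole roots it measured 21.8, 19.4 and 21.0 CPM in wild type against 20.03, 23.0 and 17.1 in the mutant (log2 -0.05, SE 0.13, edgeR adjusted p = 0.902), and the effects differed by 0.93 (SE 0.24, interaction adjusted p = 0.0116). Sorted against whole root, GIF2 had a log2 fold change of -0.14 in wild type (edgeR adjusted p = 0.351) and 0.78 in the mutant (adjusted p = 0.0291). The endodermal call of GIF2 was lost without wild-type sorted replicate 1, 2 or 3, at adjusted p of 0.0936, 0.0798 and 0.0848. Without mutant whole-root replicate 1, 2 or 3, its call between tissues in the mutant was lost too, at 0.124, 0.0870 and 0.134, as it was with no filter on low counts (adjusted p = 0.0562). GIF3 had 6 to 52 counts per library and was called in 0 of the 5 comparisons by edgeR, lying at 0.30 (SE 0.84, adjusted p = 0.824) in sorted endodermis. GIF2 and GIF3 overlap antisense genes by 166 and 115 bases.

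Among 13 subunits of SWI/SNF remodelling complexes, to which GIF1 couples GRF proteins, 3 rose and 0 fell in mutant endodermis, where 15.6% and 12.9% of all genes did. SWI3D, a scaffold subunit, averaged 28.1 ± 3.43 CPM in wild type against 84.9 ± 2.25 in the mutant (log2 1.62, SE 0.20, edgeR adjusted p = 0.00121). The ATPase gene BRM averaged 132 ± 21.2 CPM in wild type against 278 ± 5.73 in the mutant (log2 1.10, SE 0.20, edgeR adjusted p = 0.00565), and SWI3C was the third. SWP73B, whose product binds GIF1, was not called (log2 0.49, SE 0.22, edgeR adjusted p = 0.133). The list had a median log2 fold change of 0.51 against -0.05 over all genes. SWI3D, BRM and SWI3C have 3654, 7578 and 2767 bases of exon and lie in the longest class, where the median was 0.36 and 23.1% of genes were called higher, and the part of length was not tested. These 3 calls held under every alternative. In 1 fit of all 12 libraries 7 subunits were called, where all genes called went from 5225 to 9251. In whole roots 0 of 13 were called, where 6.1% of all genes were, with BRM at 0.06 (SE 0.12, edgeR adjusted p = 0.864). The interaction was called higher for 4, led by SWI3D (1.38, SE 0.21, edgeR adjusted p = 5.12e-04), where 13.8% of all genes were. In wild type, 2 of 13 subunits stood higher and 5 lower in sorted cells than in whole root, where 33.4% and 35.4% of all genes did, led by SWI3A (log2 0.69, edgeR adjusted p = 0.00104) and SWP73A (log2 -1.33, adjusted p = 3.25e-04). Without wild-type whole-root replicate 1 or 2 these 7 calls became 4. In the mutant that comparison called SWI3C alone as higher (log2 0.67, edgeR adjusted p = 0.0195), where 12.3% of all genes were. This call was lost without any 1 of the mutant whole-root replicates. Without mutant sorted replicate 1, 6 were called, where all genes called went from 5727 to 8557.

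Of 6 genes that make microRNAs or act with them, 2 rose and 0 fell in mutant endodermis, where 15.6% and 12.9% of all genes did. The list median was 0.62 against -0.05 over all genes. DCL1, which cuts microRNA precursors, averaged 10.7 ± 2.25 CPM in wild type against 45.7 ± 6.83 in the mutant (log2 2.12, SE 0.26, edgeR adjusted p = 0.00125). AGO1, the slicer that carries miR396, was the other (log2 0.85, SE 0.18, edgeR adjusted p = 0.0107), a call lost without any 1 of the wild-type sorted replicates (adjusted p 0.0549 to 0.0672). DCL1 and AGO1 have 6279 and 3640 bases of exon and also lie in the longest class. DCL1 was lower in wild-type sorted cells than in wild-type whole roots (log2 -1.84, SE 0.17, edgeR adjusted p = 9.80e-06), while mutant sorted and whole-root levels overlapped (log2 0.36, edgeR adjusted p = 0.210). In the wild-type comparison 2 genes were higher, led by HEN1 (log2 0.52, edgeR adjusted p = 0.0137), and 2 lower, where 33.4% and 35.4% of all genes were. These 4 calls became 2 without wild-type whole-root replicate 3. In the mutant 1 was called, SE, higher by 0.71 (edgeR adjusted p = 0.0267), where 12.3% of all genes were higher. That edgeR call was lost with no filter on low counts (adjusted p = 0.0524) or without mutant sorted replicate 3 (adjusted p = 0.0626). It was lost too without any 1 of the mutant whole-root replicates (edgeR adjusted p 0.0975 to 0.123). In whole roots 0 of 6 differed by genotype in edgeR, where 6.1% of all genes did, and DCL1 lay at -0.11 (SE 0.11, adjusted p = 0.652). DCL1 and AGO1 were both called in the interaction, at 2.21 (SE 0.26, edgeR adjusted p = 1.16e-04) and 0.89 (SE 0.18, adjusted p = 0.00344), where 13.8% of all genes were called higher. Of 5 CIN-type TCP genes, which drive leaf cells out of division and promote miR396, 2 could be tested in sorted endodermis and 0 were called, against 2 in 1 fit of all 12 libraries and 1 without mutant sorted replicate 1 or 2. In sorted endodermis TCP4 lay at 1.87 (SE 0.79, edgeR adjusted p = 0.114) and TCP3 on the other side, at -2.10 (SE 1.21, adjusted p = 0.228). TCP4 lay at 0.73 in whole roots (SE 0.23, edgeR adjusted p = 0.115). TCP10 was lower in wild-type sorted cells than in whole root (log2 -2.53, SE 0.41, edgeR adjusted p = 3.91e-04). In the mutant 0 of 3 were called between tissues, against 1 with DESeq2, and 2 with limma-voom, in 1 fit of all 12 libraries or without mutant sorted replicate 2. In the interaction 0 of 3 were called by edgeR, against 1 with DESeq2 or limma-voom and 2 without mutant sorted replicate 2.

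Of 11 genes placed downstream of GRF or GIF proteins, 9 were tested in sorted endodermis, where 3 rose and 1 fell with the mutation and the median log2 fold change was 0.78. Among all genes 15.6% rose and 12.9% fell there, with a median of -0.05. BBM, a root stem cell factor of the PLETHORA family, averaged 7.93 ± 2.15 CPM in wild type against 33.0 ± 18.6 in the mutant (log2 2.08, SE 0.47, edgeR adjusted p = 0.0139). CRF2, a cytokinin response factor and reported GIF1 target, and PLT3 also rose, by 1.22 (edgeR adjusted p = 0.00966) and 0.78 (adjusted p = 0.0466) on the log2 scale. ARR4, a cytokinin response regulator, fell by 1.01 (SE 0.28, edgeR adjusted p = 0.0278). PLT1 (log2 1.19, SE 0.51, edgeR adjusted p = 0.113) and PLT2 (log2 0.77, SE 0.38, adjusted p = 0.168), master regulators of the root meristem, were not called. Of these 4 calls 0 were made without wild-type sorted replicate 2 and 1 without replicate 1 or 3. In 1 fit of all 12 libraries 7 of these genes were called, where all genes called went from 5225 to 9251. In whole roots 0 of 10 tested were called by edgeR, against 1 by DESeq2, 1 by edgeR with no filter on low counts and 1 without wild-type whole-root replicate 2, with PLT1 at 0.18 (SE 0.16, edgeR adjusted p = 0.595) and PLT2 at 0.30 (SE 0.13, adjusted p = 0.254). Whole-root medians were 0.06 for SWI/SNF subunits, 0.08 for microRNA genes, 0.17 for TCP genes and 0.10 for the downstream genes.

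Between tissues in wild type 5 of 10 tested were higher and 1 lower in sorted cells than in whole root, where 33.4% of all genes were higher and 35.4% lower, led by DREB2A (log2 3.92, SE 0.22, edgeR adjusted p = 5.31e-07) and KNAT1 (log2 -5.72, SE 0.67, adjusted p = 4.83e-05). PLT2 was higher by 2.06 (SE 0.15, edgeR adjusted p = 2.17e-06) and PLT1 by 1.09 (SE 0.23, adjusted p = 0.00205). In the mutant 7 of 10 tested were higher and 2 lower, where 12.3% and 17.3% of all genes were, including DREB2A (log2 5.32, SE 0.31, edgeR adjusted p = 1.18e-04), PLT2 (2.50, adjusted p = 0.00424) and PLT1 (2.07, adjusted p = 0.0203). KNAT1 had 298 counts over the mutant whole-root group and 0 over the mutant sorted group. Scaled by library totals without TMM factors, that is at least 46.3-fold lower against a floor of 3 counts summed over the sorted group. Leaving out mutant whole-root replicate 2 reduced these 9 calls to 5. DREB2A is also a stress gene, and wounding and protoplasting genes summed to 533 to 692 CPM in wild-type sorted cells against 36.0 to 44.0 in whole roots, and their part was not tested. The interaction was called for 3 of 10, led by BBM (1.94, SE 0.54, edgeR adjusted p = 0.0186) and ARR4 (-1.12, SE 0.28, adjusted p = 0.00970), where 28.4% of all genes were called. It was called for 7 without mutant sorted replicate 1, where all genes called went from 5758 to 7880, and for 5 with DESeq2 or its size factors.

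**Figure D4:**
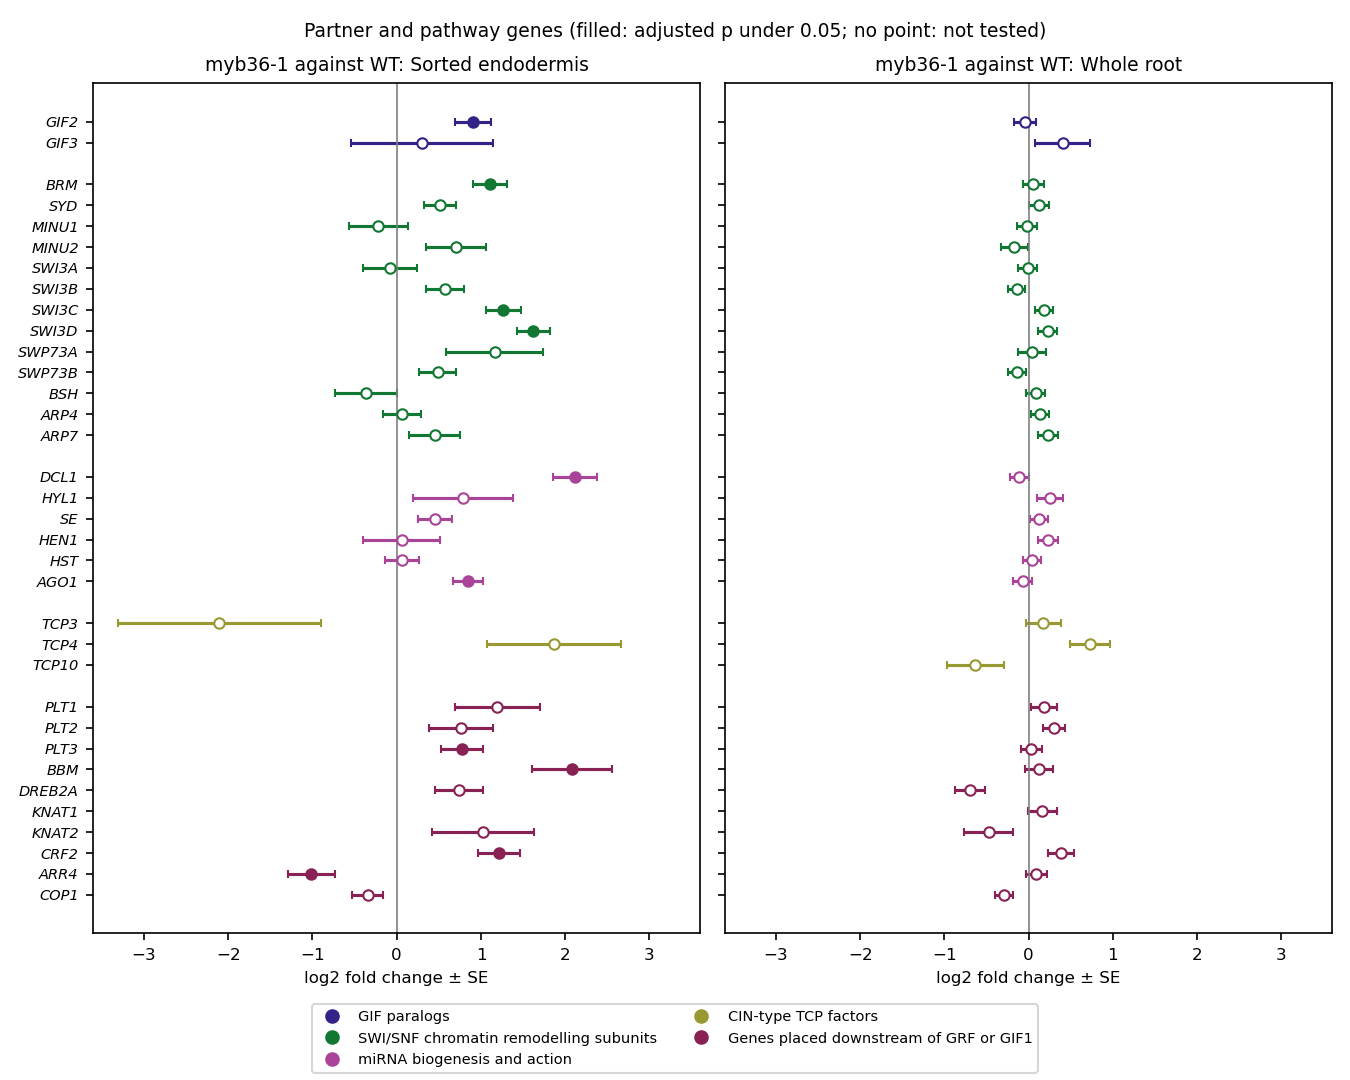
log2 fold change ± SE of mutant against wild type for GIF2, GIF3 and the pathway genes tested, in sorted endodermis (left) and whole root (right). Filled points have an edgeR adjusted p under 0.05. Filled points occur on the left, with DCL1 at 2.12 and BBM at 2.08 the highest of them, and there are none on the right.

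The 5 genes whose levels followed GIF1 most closely over the 12 libraries were AT2G43800 (Pearson correlation 0.990 of log2(CPM + 1)), AT2G28790 (0.987), AT1G35210 (0.986), CRF2 (0.979) and AT4G06477 (0.978). CRF2 measured 17.9 CPM in wild-type sorted cells, 40.9 in mutant sorted cells, 13.4 in wild-type and 17.4 in mutant whole roots. GRF3 was followed most closely by RBP47A (0.989), AT2G21580 (0.984), AT4G18440 (0.983), AT4G16720 (0.982) and the ribosomal protein gene RPS5B (0.980). Ranked over the 4 group means instead, 0 of the 5 genes like GIF1 and 1 of the 5 like GRF3, AT4G16720, remained.

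The authors' deposited table of Cuffdiff tests holds 1 pooled FPKM value (fragments scaled to transcript length and library depth) per genotype, and members were matched to it by position, since GRF is also a name of 14-3-3 genes. In the authors' deposited table GIF1 went from 17.7 to 84.0 FPKM in sorted endodermis (q = 3.47e-05) and from 13.1 to 18.2 in whole roots (q = 0.552). GRF4 had 17.2 and 36.7 FPKM in sorted endodermis in the authors' deposited table (q = 5.58e-05), where the count test over replicates gave an edgeR adjusted p of 0.201. GIF2 had 18.2 and 40.8 FPKM in the authors' deposited table (q = 0.0719). GRF3 and GRF9 were marked as failed there for sorted endodermis, and their table loci join 3 counted genes each. GRF8 was listed at 0.157 FPKM in wild-type and 3.77 in mutant sorted cells in the authors' deposited table (q = 0.00124), while its counts were 0 in all 3 mutant sorted libraries. GRF6, at a like 4.29 FPKM in the authors' deposited table, had 20, 31 and 20 counts in them. MIR396A, over a locus longer than the counted gene, had 4.70 FPKM in wild-type and 7.72 in mutant sorted cells there (Cuffdiff q = 0.656). In whole roots its values were 8.15 and 13.4 FPKM (Cuffdiff q = 0.99994).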

How the data were processed

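The authors deposited raw read counts per locus for 12 libraries, and these counts were used as deposited. The authors' deposited test tables, with FPKM per genotype, a p-value and a q-value per the file headers, were used only where named, and deposited normalized counts were not used. TopHat2, SAMtools, Cufflinks, Cuffdiff and HTSeq and the build TAIR10 are named in the submitters' processing notes, without versions. Per the labels, the library kit marks strand.

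The test was that of edgeR 4.0.16 under R 4.3.3 (TMM factors, filterByExpr by group, quasi-likelihood F-test, Benjamini-Hochberg over all genes tested, called at an adjusted p under 0.05), in 1 fit for each pair of groups and 1 fit of all 12 libraries for the interaction. SE is the absolute log2 fold change divided by the square root of F. Levels are CPM with TMM factors over all 12 libraries, and lengths are summed exons of the TAIR10.1 annotation. Limits set for 0 counts are scaled by library totals without these factors. Scripts were tested on simulated data, with 100 changes of 2-fold and 100 of 4-fold in each comparison. Of the 2-fold changes, 2% were recovered in sorted endodermis, 75% in whole root and 0% in the interaction. Between tissues 54% were recovered in wild type and 3% in the mutant. Of the 4-fold changes, 54%, 95% and 41% were recovered in sorted endodermis, whole root and interaction, and 94% and 51% between tissues. Far fewer genes changed in the simulations than were called in the data, so the adjusted threshold was stricter there. These shares are therefore not the power of the tests on the data. No pair of replicates agreed within sampling noise. Alternatives were DESeq2 1.42.0, its size factors in edgeR, limma-voom 3.58.1, no filter or a CPM of at least 1 in 3 libraries, thinning to the smallest library, 1 fit of all 12 libraries, the replicate number as a block and leaving out each library.

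The members, lists and tests were chosen with earlier results of these data known. Named were all members, GIF2, GIF3 and the precursors, the largest called change in each direction per list, BRM, SWP73B, TCP4, PLT1, PLT2, and the 5 genes most like GIF1 and GRF3. SWI3C, AGO1, CRF2, PLT3 and TCP3 in endodermis were named after their values were seen. Protein and promoter sequences were not used here.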

Additional observations from a re-analysis of the deposited data

Results flagged for a closer look

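The genotype effect on GIF1 in sorted endodermis exceeded that in whole root by 1.47 on the log2 scale, which drew attention because the test of this difference passed its threshold (edgeR interaction term, adjusted p = 0.00248). GIF1 was higher in 3 of 3 mutant libraries than in any wild-type library in both tissues, by a log2 fold change of 2.02 in sorted endodermis and 0.53 in whole root.

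GRF8 was listed at 3.77 FPKM for mutant sorted endodermis in the authors' deposited table, against 0.157 for wild type, a signal outside the count table, where all 3 mutant sorted libraries had 0 counts. The reason for this mismatch was not tested.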

How the results depend on the processing

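The GIF1 calls in sorted endodermis, in both tissue comparisons and in the interaction kept their side of the threshold under every alternative run. In 1 fit of all 12 libraries, the genes called went from 5225 to 9251 in sorted endodermis, from 1197 to 142 between genotypes in whole root and from 5727 to 9057 between tissues in the mutant. Leaving out 1 library, these counts ranged from 2236 to 7017, 594 to 1876 and 2905 to 8557, and members called ranged from 0 to 3 in whole root, 1 to 5 between tissues in the mutant and 1 to 3 in the interaction. Members called in the interaction went from 1 to 2 with DESeq2 (GRF1) and 3 with limma-voom (GRF1, GRF3). The labels state no pairing by replicate number. Deviations of samples with the same number had correlations of -0.13 to 0.29, which cannot settle whether some were handled together. With the replicate block 1 member, GIF1, was called in whole root (adjusted p = 0.0370), and the genes called between tissues in the mutant went from 5727 to 3928. The block also ended the calls of GIF2, SWI3C and SE between tissues in the mutant (adjusted p = 0.0867, 0.0875 and 0.0878) and of ARR4 in sorted endodermis (adjusted p = 0.0601), and 1 gene downstream of GRF or GIF proteins was called in whole root with it. GRF2 between tissues in wild type was not called in the fit of all 12 libraries (adjusted p = 0.0801).

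Uncalled values changed sign as follows, and the cause was not tested. In sorted endodermis GRF2 was -0.47 with limma-voom and -0.22 with the replicate block, and GRF6 was -0.0069 with no filter, -0.036 with limma-voom and -0.049 with thinning. With thinning GRF6 was 0.061 in whole root and GRF9 was 0.23 in the interaction, and with limma-voom GRF2 was -0.028 between tissues in the mutant. Leaving out 1 library, the log2 values in sorted endodermis ranged from -0.41 to 0.53 for GRF2, -0.27 to 0.33 for GRF6 and -1.48 to 0.31 for GRF9. In whole root GRF6 ranged from -0.13 to 0.066, and GRF9 between tissues in the mutant from -1.54 to 0.18. In the interaction GRF4 ranged from -0.25 to 0.52, GRF6 from -0.23 to 0.38 and GRF9 from -1.28 to 0.41. Depth limits GRF5, GRF7 and GRF8, which had at most 3 counts in any library.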
